A study of Mus musculus with 18 samples.

Results

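The interferon-inducible GTPases of the immunity-related GTPase (IRG) family and the guanylate-binding protein (GBP) family were followed in the left ventricle of mouse hearts. The members were chosen by name: the IRG genes Igtp, Irgm1, Irgm2, Iigp1, Tgtp1 and Tgtp2 and the GBP genes Gbp2, Gbp3, Gbp4 and Gbp5, which are 10 of the 24421 genes counted. They were picked with parts of their pattern already known, above all the very high Igtp of 1 young WT sham heart and the lower values of several members after reperfusion in young WT hearts. Levels in that heart and every comparison against young WT sham hearts are therefore given as a description, and nothing is read from the number of members that passed a test there.

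Gene counts came from 18 hearts, 3 in each of 6 groups of C57BL/6 mice. The groups were Sesn2-KO (Sesn2-/-, 3 to 4 months old) after ischaemia and reperfusion (IR), Sesn2-KO after sham surgery, aged WT (24 to 26 months) after IR, aged WT after sham surgery, young WT (3 to 4 months) after IR, and young WT after sham surgery. IR was 45 min of closure of the left anterior descending coronary artery followed by 24 h of reperfusion, and sham mice had the chest opened without closure. Young WT mice were bought from The Jackson Laboratory, aged WT mice came from Charles River, and Sesn2-KO mice were bred in the submitters' own laboratory, so source cannot be told apart from age or genotype. Sesn2, the deleted gene, was at 0 to 0.362 CPM in the 6 Sesn2-KO libraries and 2.50 to 6.03 CPM in the 12 WT libraries.

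Both families are large GTPases that cells make in quantity when exposed to interferon. In mice the IRG proteins defend against parasites and bacteria that live in vacuoles: Igtp (also named Irgm3), Irgm1 and Irgm2 sit on the cell's own membranes and hold the effector GTPases inactive there, and the effectors Iigp1, Tgtp1 and Tgtp2 load onto the vacuole and break it. GBP proteins are recruited to the same vacuoles and to bacterial surfaces, and several of them feed into inflammasome signalling. Interferon-gamma acts on both families through its receptor (Ifngr1 and Ifngr2) and the kinases Jak1 and Jak2, and the promoters it reaches carry GAS sites and ISRE sites, the second of which Irf1 binds.

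Promoter stretches are shown for 6 members because the letters of those binding sites lie within them, ahead of any annotated exon. RefSeq windows on GRCm38.p6 were matched by symbol for 8 of the 10 members, all but Gbp4 and Iigp1, and the 250 bases before each start were searched on both strands for the GAS letters TTCNNNGAA and the ISRE letters GAAANNGAAA (TTTCNNTTTC on the other strand). Each line runs 5′ to 3′ on the gene's strand and ends at the annotated start or before the first annotated exon, with matched letters in capitals.
Igtp (chr11:58199386-58199555, plus strand): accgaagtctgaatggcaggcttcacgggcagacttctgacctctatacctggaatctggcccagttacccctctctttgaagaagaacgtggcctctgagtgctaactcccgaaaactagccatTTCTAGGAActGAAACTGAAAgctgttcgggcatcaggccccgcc
Irgm2 (chr11:58214807-58214976, plus strand): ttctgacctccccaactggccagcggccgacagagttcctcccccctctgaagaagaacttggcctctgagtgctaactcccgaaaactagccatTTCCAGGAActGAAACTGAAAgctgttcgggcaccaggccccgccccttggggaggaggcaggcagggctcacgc
Tgtp1 (chr11:48992259-48992416, minus strand): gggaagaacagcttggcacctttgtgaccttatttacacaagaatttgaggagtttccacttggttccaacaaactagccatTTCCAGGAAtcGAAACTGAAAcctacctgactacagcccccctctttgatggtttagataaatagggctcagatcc
Tgtp2 (chr11:49064213-49064382, minus strand): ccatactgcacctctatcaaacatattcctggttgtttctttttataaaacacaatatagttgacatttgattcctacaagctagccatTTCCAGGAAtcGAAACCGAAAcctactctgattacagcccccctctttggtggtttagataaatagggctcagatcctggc
Gbp3 (chr3:142559874-142560025, plus strand): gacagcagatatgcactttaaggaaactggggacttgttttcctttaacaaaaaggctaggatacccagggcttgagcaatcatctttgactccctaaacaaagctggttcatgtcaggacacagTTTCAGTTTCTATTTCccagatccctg
Gbp5 (chr3:142496764-142496899, plus strand): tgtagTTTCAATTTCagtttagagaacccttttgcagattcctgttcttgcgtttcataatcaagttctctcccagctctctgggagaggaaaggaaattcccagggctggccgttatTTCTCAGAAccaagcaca

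ISRE letters were found in all 8 members with a window, and in 978 of all 32851 windows (2.98%). Members are counted by gene here, and a further window of Gbp3 held neither ISRE nor GAS letters. GAS letters were found in 5 of the 8 (Igtp, Irgm2, Tgtp1, Tgtp2 and Gbp5) and in 7.02% of all windows. In Igtp, Irgm2, Tgtp1 and Tgtp2 the GAS letters were followed, after 2 bases, by the ISRE letters, an arrangement present in 5 windows in all, the fifth belonging to Gm12185. That arrangement was looked for after the windows had been seen. The ISRE letters of Irgm1 began 30 and 24 bases before its start and those of Gbp2 59 bases before it. In both genes they lie past the first annotated exon base, so no stretch is shown. A match is a run of letters and was not tested for binding.

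Some members are hard to count apart. Of the 100-base stretches of the Tgtp1 transcript, 83.3% also occurred in transcripts of another gene, Tgtp2 or Gm12185, and the share was 80.4% for Tgtp2. It was 5.67% for Igtp and 2.48% for Irgm2, which share stretches with each other and overlap in the annotation, 2.88% for Gbp4, 0.929% for Gbp3, and 0 for Irgm1, Iigp1, Gbp2 and Gbp5. Values of Tgtp1 and Tgtp2 one by one are uncertain for that reason, and their sum is given as well.

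The libraries held 9404531 to 14458047 gene counts. The lowest count of any member was 37 (Tgtp1 in aged WT IR 2, 3.93 CPM, exact Poisson 95% interval 2.77 to 5.42 CPM) and the highest 26901 (Iigp1 in young WT sham 3, 2183 CPM, 2157 to 2209 CPM). All 10 members passed the filter on low counts. Libraries deviated from their group means in step with transcript length, in both directions. The highest rank correlation across genes in each group was 0.36 to 0.55, with the largest in young WT sham 1. Others deviated the opposite way, such as young WT sham 2 (-0.483) and aged WT sham 2 (-0.388). CPM are counts scaled by the summed gene counts of the library, and each library goes by its group with its replicate number.

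A pair of sham hearts stood apart from the other 16 libraries in these genes. Young WT sham 3 had the highest level of all 10 members and aged WT sham 2 the second highest of all 10. Summed over the members, 6685 CPM were measured in young WT sham 3 and 1051 CPM in aged WT sham 2, against 269 to 543 CPM in the other 16. Young WT sham 3 was not high across genes: of 13058 genes that averaged 1 CPM or more, 347 (2.66%) were highest in young WT sham 3, and the median gene there was at 0.885 times the higher of its group mates. Results are given with and without young WT sham 3 throughout.

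**Figure D1:**
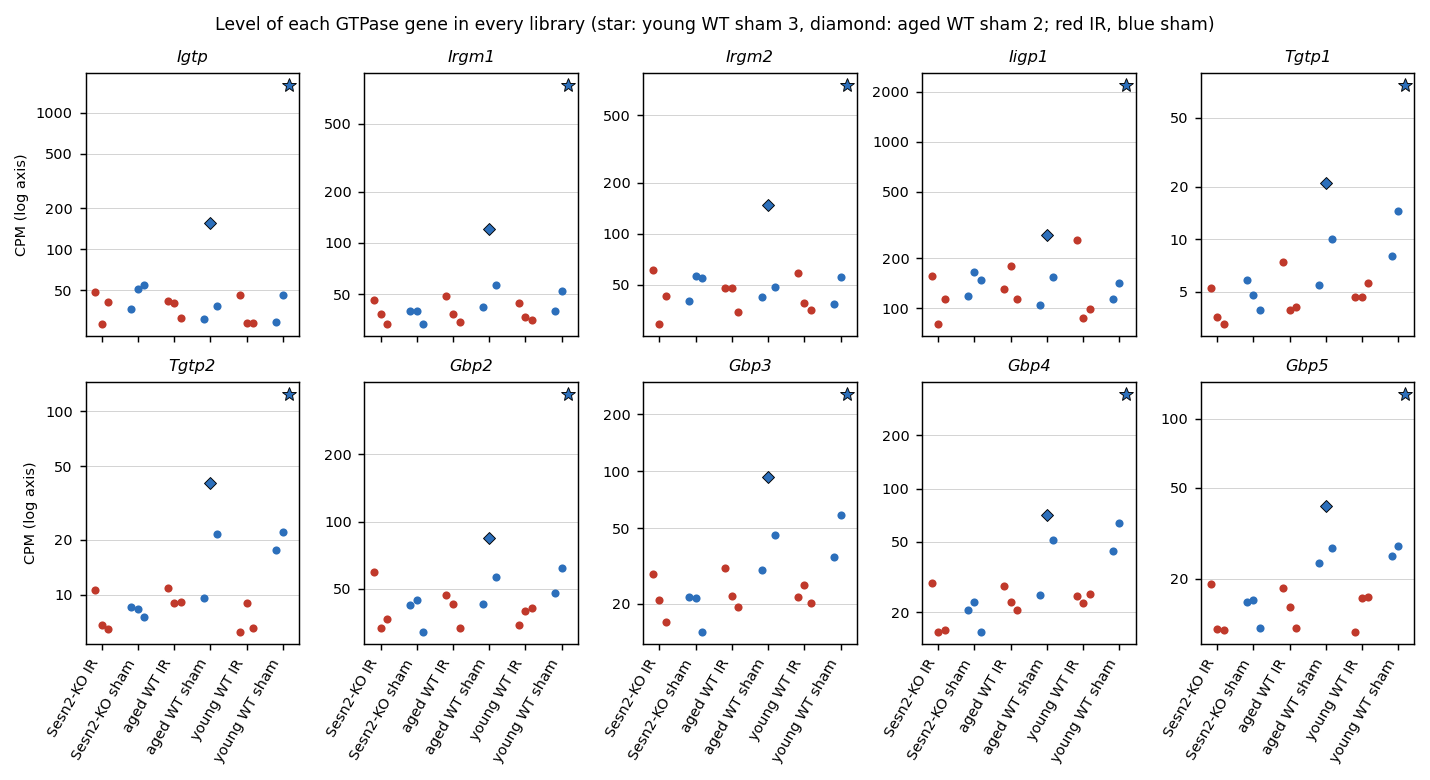
CPM of each of the 10 members (log axis) in all 18 libraries, by group, 1 point a library; IR is red and sham blue. In every panel the star (young WT sham 3) is the highest point and the diamond (aged WT sham 2) the second highest.

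Igtp, which guards host membranes, was at 48.8, 28.4 and 41.2 CPM in Sesn2-KO IR hearts and 36.6, 51.6 and 55.1 CPM in Sesn2-KO sham hearts. Its levels were 41.6, 40.3 and 31.4 CPM in aged WT IR hearts and 30.7, 154.8 and 38.6 CPM in aged WT sham hearts. They were 46.2, 28.7 and 29.0 CPM in young WT IR hearts and 29.4, 45.9 and 1598 CPM in young WT sham hearts. With the 2 high sham hearts set aside, all 16 remaining values lay between 28.4 and 55.1 CPM and every pair of groups overlapped.

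Iigp1, the effector with the highest level of the family in the other 16 libraries, was at 157.0, 80.5 and 113.3 CPM in Sesn2-KO IR hearts and 119.2, 164.0 and 148.2 CPM in Sesn2-KO sham hearts. Aged WT IR hearts had 130.1, 179.1 and 113.5 CPM and aged WT sham hearts 104.2, 276.9 and 153.6 CPM. Young WT IR hearts had 257.3, 87.3 and 99.6 CPM and young WT sham hearts 113.1, 141.1 and 2183 CPM. The groups overlapped throughout, and young WT IR 1 came close to aged WT sham 2. Irgm1 and Irgm2, the other membrane guards, were at 842.1 and 754.2 CPM in young WT sham 3, at 120.3 and 147.2 CPM in aged WT sham 2, and between 29.3 and 60.7 CPM elsewhere.

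Gbp4, a guanylate-binding protein encoded at chr5:105115767-105139586, was at 29.1, 15.5 and 15.8 CPM in Sesn2-KO IR hearts and 20.6, 22.9 and 15.4 CPM in Sesn2-KO sham hearts. It was at 28.1, 22.9 and 20.5 CPM in aged WT IR hearts and 25.0, 70.8 and 51.2 CPM in aged WT sham hearts. In young WT IR hearts it was at 24.8, 22.6 and 25.5 CPM, and in young WT sham hearts at 44.5, 63.6 and 345.4 CPM. Every young WT sham heart lay above every Sesn2-KO and every IR heart, while aged WT sham 2 and 3 lay among the young WT sham values. The share of all genes with that pooled pattern was not computed. Of all genes tested, 9.63% lay lower in every young WT IR heart than in every young WT sham heart. For Sesn2-KO sham hearts against young WT sham hearts the share was 10.5%. The annotated span of Gbp4 overlaps those of Gbp8 and Gbp9.

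Gbp3 was at 28.5, 20.9 and 16.1 CPM in Sesn2-KO IR hearts and 21.5, 21.4 and 14.1 CPM in Sesn2-KO sham hearts. Aged WT IR hearts had 31.0, 22.0 and 19.2 CPM and aged WT sham hearts 30.2, 93.5 and 45.9 CPM, overlapping by 1 heart on each side. Young WT IR hearts had 21.7, 25.0 and 20.03 CPM and young WT sham hearts 35.1, 58.6 and 256.8 CPM, with no overlap. Of all genes tested, 9.63% lay lower in every young WT IR heart than in every young WT sham heart. Gbp5, which promotes inflammasome assembly, was at 18.1, 15.1 and 12.1 CPM in aged WT IR hearts and 23.5, 41.4 and 27.3 CPM in aged WT sham hearts, also with no overlap. In that comparison 13.8% of all genes tested lay lower in every IR heart than in every sham heart.

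Tgtp1 and Tgtp2, the vacuole-loading effectors that resemble each other most, were summed. Their sum was 15.9, 10.4 and 9.77 CPM in Sesn2-KO IR hearts and 14.4, 13.1 and 11.5 CPM in Sesn2-KO sham hearts. It was 18.3, 12.97 and 13.2 CPM in aged WT IR hearts, against 15.0, 61.5 and 31.4 CPM in aged WT sham hearts, and 10.9, 13.6 and 12.2 CPM in young WT IR hearts, against 25.5, 36.6 and 201.9 CPM in young WT sham hearts. All 3 young WT sham hearts were above all IR and Sesn2-KO hearts. The share of all genes with that pooled pattern was not computed, and shares for pairs of groups are given with the tests below.

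Compared per length over the 16 other libraries, Iigp1 had the highest mean level, 43.3 ± 13.8 CPM per kb of transcript (SD, n = 16). Igtp (19.3 ± 4.37), Irgm1 (18.2 ± 3.02) and Gbp2 (17.3 ± 3.66) followed within each other's spread. Irgm2 (12.9 ± 2.71), Gbp3 (10.1 ± 4.31), Gbp4 (6.17 ± 2.99) and Gbp5 (5.75 ± 1.82) came next. Counted one by one, Tgtp2 (3.77 ± 1.80) and Tgtp1 (2.11 ± 1.04 CPM per kb) were lowest. Their places are uncertain, because most of their transcript sequence is shared and the handling of shared reads is not known. In young WT sham 3 the order began with Igtp at 790.2 CPM per kb, ahead of Iigp1 at 699.4 and Irgm1 at 372.8 CPM per kb. The excess of that heart was thus uneven over the family.

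Igtp showed the largest excess of the 10, at 34.8 times the higher of young WT sham 1 and 2. The ratio was 16.1 for Irgm1, 15.5 for Iigp1 and 13.6 for Irgm2, but 4.38 to 6.07 for Tgtp1, Tgtp2, Gbp2, Gbp3, Gbp4 and Gbp5. Aged WT sham 2 had 4.01 times the higher of its group mates for Igtp and 3.05 times for Irgm2, and 1.38 to 2.12 times for the other 8 members. Young WT sham 3 was itself 10.3 times aged WT sham 2 for Igtp and 2.75 times for Gbp3.

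Other genes of the 2 families went with them, some by far more. Of 17 listed, 14 were highest in young WT sham 3, and aged WT sham 2 was second in 12 of those. Gm4841, listed in RefSeq under the synonym Ifgga3, was at 1003 CPM in young WT sham 3 and 35.4 CPM in aged WT sham 2, and at 0.501 to 4.47 CPM in the other 16. Gm12250, listed in RefSeq under the synonym Irgb10, was at 322.7 and 22.5 CPM in these hearts and 2.10 to 8.39 CPM elsewhere. F830016B08Rik was at 652.6 and 41.1 CPM, against 2.63 to 24.9 CPM elsewhere.

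Among GBP genes that are no members, Gbp10 was 103.1 times, Gbp6 22.8 times, Gbp8 9.96 times, Gbp7 5.60 times and Gbp9 2.82 times the higher of young WT sham 1 and 2 in young WT sham 3. Ifi47 had a ratio of 5.47 and Gm4951 of 3.73. The low-level genes Gbp2b and Gbp11 reached 3.98 and 1.38 CPM there, and 9930111J21Rik1 and 9930111J21Rik2 were at 3.81 and 0.325 CPM with ratios of 1.11 and 1.03. Irgq, an IRG-related gene, was at 31.5 CPM in young WT sham 3 and 26.6 to 49.2 CPM in the 16 other libraries, Irgc1 was at 0 in young WT sham 3 and no higher than 0.147 CPM in any library, and Gvin1 was at 0 in all 18.

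**Figure D2:**
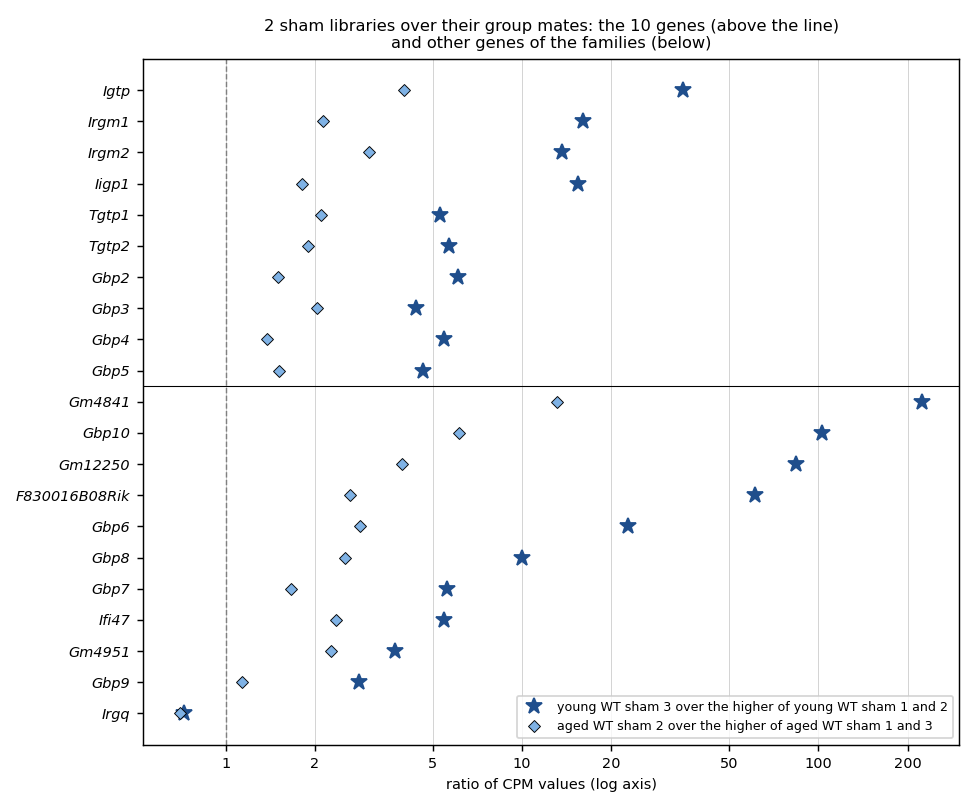
Ratio of young WT sham 3 (stars) and of aged WT sham 2 (diamonds) to the higher of their 2 group mates, on a log axis, for the 10 members above the line and 11 other family genes below it. Igtp leads the members at 34.8, the Tgtp and GBP members lie between 4.38 and 6.07, Gm4841 reaches 224.1, and Irgq lies below 1.

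The signalling chain upstream was read next, from ligand to transcription factor. Ifng, which encodes interferon-gamma, was at 0 in 12 of 18 libraries and never above 2 counts, and a count of 0 allows up to 0.207 to 0.319 CPM, depending on the library. Ifnb1 and Ifna4 were at 0 in all 18. Ifngr1 and Ifngr2, the receptor chains, were at 80.3 and 250.01 CPM in young WT sham 3, within the ranges of the 16 other libraries (78.2 to 104.1 and 162.1 to 287.5 CPM). Jak1 and Jak2 were at 217.0 and 63.8 CPM there, also within the other libraries' ranges (177.3 to 304.7 and 52.2 to 71.2 CPM).

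Irf1, a transcription factor induced by interferon-gamma, was at 183.3 CPM in young WT sham 3 and 62.5 CPM in aged WT sham 2, against 35.8 to 56.8 CPM in the other 16. Socs1, a feedback inhibitor of the kinases, was at 6.25 CPM in young WT sham 3 and 3.11 CPM in aged WT sham 2, against 0.491 to 4.56 CPM elsewhere, and Irf8 at 15.8 and 16.97 CPM, inside its range of 8.41 to 21.2 CPM in the other 16 but above the group mates of both hearts. The receptors and kinases thus did not stand apart where Irf1 and the GTPases did.

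**Figure D3:**
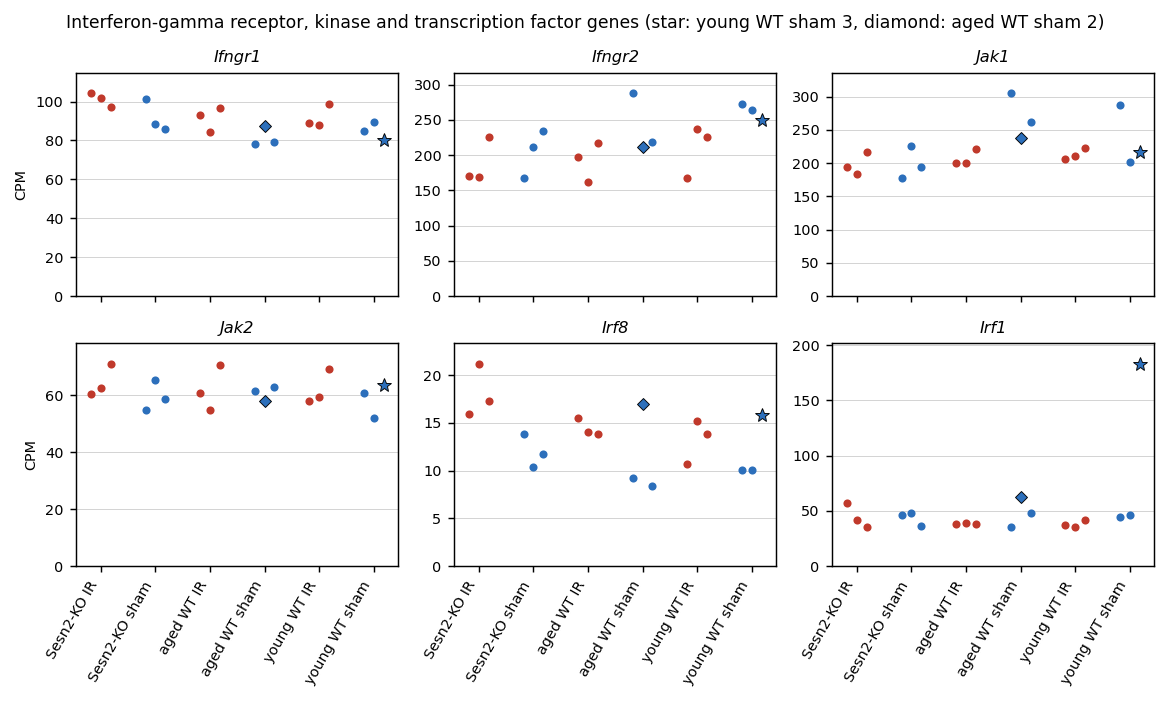
CPM of the receptor genes Ifngr1 and Ifngr2, the kinase genes Jak1 and Jak2, and the transcription factor genes Irf8 and Irf1 in all 18 libraries, axes from 0, IR in red and sham in blue. The star (young WT sham 3) and diamond (aged WT sham 2) lie within the range of the other points for all of these but Irf1, where they lie above them at 183.3 and 62.5 CPM.

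Of 20 listed targets of interferon-gamma outside the families, 13 were highest in young WT sham 3, with a median ratio of 3.99 to the higher group mate. Cd274, which encodes PD-L1, was at 339.1 CPM there and 49.7 CPM in aged WT sham 2, against at most 28.8 CPM elsewhere. Tap1, a peptide transporter for antigen presentation, was at 242.8 and 62.6 CPM, against at most 30.7 CPM. The class II genes H2-Aa, H2-Ab1, H2-Eb1 and Cd74 were instead highest in aged WT sham 2, H2-Aa at 300.6 CPM there and 280.7 CPM in young WT sham 3. For 18 listed targets of type I interferon the median ratio was 2.38, with 14 highest in young WT sham 3.

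Of 15 listed genes tied to autophagy or to the placing of these GTPases on membranes, 1 was highest in young WT sham 3. It was Trim21 (49.7 CPM, against at most 15.1 CPM in the 16 others), which was also among the genes most like the members' mean given below. The median ratio of that list was 0.903. Of 8 genes of the inflammasome pathway that GBP proteins feed, 1 was highest there (Pycard, 24.7 CPM, against at most 23.5 CPM), with a median ratio of 1.07.

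Markers of cell types were compared in the same way. None of the 14 T and NK cell markers was highest in young WT sham 3, where Cd3e and Cd8b1 were at 0 and the list summed to 5.36 CPM. In aged WT sham 2 the list summed to 15.7 CPM, the highest of all libraries, with 10 of 14 markers first or second. The sums ranged over 5.63 to 13.7 CPM in Sesn2-KO IR, 6.22 to 9.15 in Sesn2-KO sham, 4.26 to 5.06 in aged WT IR, 5.796 to 15.7 in aged WT sham, 2.50 to 5.64 in young WT IR and 3.69 to 5.36 CPM in young WT sham hearts. No marker of B cells, macrophages, neutrophils, endothelial cells, fibroblasts, smooth muscle cells or cardiomyocytes was highest in young WT sham 3. In aged WT sham 2 other blood cell markers were higher as well: each of the 5 neutrophil markers was 1.82 to 2.33 times, and each of the 6 macrophage markers 1.27 to 2.14 times, the higher of its group mates. Neutrophil markers summed to 16.3 CPM in aged WT sham 2, against 4.84 and 7.39 CPM in aged WT sham 1 and 3, and macrophage markers to 438.4 CPM, against 280.1 and 279.99 CPM. The 4 B cell markers had ratios of 1.24 to 2.61. The part of these cells in the levels of aged WT sham 2 was not tested, and fewer cells of a type cannot be told apart from less RNA per cell in whole-tissue samples.

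The ventricular label was checked against cardiomyocyte genes, whose 6 markers summed to 24140 to 34915 CPM, and against the atrial genes Myl7, Sln and Nppa. The atrial sum was 857.9 to 1747 CPM in Sesn2-KO IR hearts and 141.0 to 709.8 CPM in the other groups. The part of that difference in the results was not tested.

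Marker sums also differed between the groups compared below. Cardiomyocyte markers summed to 27465 to 28093 CPM in Sesn2-KO sham hearts and 26466 to 30015 CPM in young WT IR hearts, against 33013 to 34915 CPM in young WT sham hearts. They summed to 26239 to 29242 CPM in aged WT IR hearts, against 33561 to 34192 CPM in aged WT sham hearts. Endothelial markers summed to 666.5 to 908.0 CPM in Sesn2-KO sham and 886.5 to 916.0 CPM in young WT IR hearts, against 1014 to 1083 CPM in young WT sham hearts, and to 740.2 to 811.3 CPM in aged WT IR hearts, against 890.4 to 1013 CPM in aged WT sham hearts. Neutrophil markers went the other way, at 28.4 to 80.1 CPM in Sesn2-KO sham and 53.2 to 113.0 CPM in young WT IR hearts, against 4.77 to 6.57 CPM in young WT sham hearts, and at 83.8 to 157.9 CPM in aged WT IR hearts, against 4.84 to 16.3 CPM in aged WT sham hearts. None of these ranges overlapped. Other lists did not separate throughout: fibroblast marker sums overlapped in each of these comparisons, and macrophage marker sums overlapped between IR and sham in young and aged WT. Smooth muscle and pericyte marker sums overlapped between IR and sham in young WT. They were lower, without overlap, in Sesn2-KO sham than in young WT sham hearts (321.6 to 412.5, against 423.0 to 547.4 CPM). Aged WT IR hearts were also lower than aged WT sham hearts (324.95 to 408.4, against 421.2 to 451.8 CPM). Macrophage sums were higher in Sesn2-KO sham than in young WT sham hearts (441.1 to 481.2, against 243.6 to 357.9 CPM), without overlap. T and NK cell sums, given above, were higher in Sesn2-KO sham than in young WT sham hearts. They were lower in aged WT IR than in aged WT sham hearts, in both cases without overlap. B cell sums were lower in young WT IR (2.33 to 4.01 CPM) than in young WT sham hearts (5.19 to 6.52 CPM). The cardiomyocyte, endothelial and neutrophil differences went with the lower Tgtp and GBP values given below. The part of these and the other marker differences in those values was not tested.

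No member passed the test between IR and sham hearts of the Sesn2-KO. Log2 fold changes, fitted with edgeR's quasi-likelihood test over all 13859 tested genes, ran from -0.35 ± 0.81 for Iigp1 to 0.14 ± 0.57 for Gbp3 (standard error, n = 3 each). The median over the members was -0.09 and that over all genes -0.0036. None of the 10 passed an adjusted p of 0.05 and none had an unadjusted p below 0.05. DESeq2 called none of the 8 members to which it gave an adjusted p, and gave none to Igtp and Irgm1. In this comparison edgeR called 0.00% of all genes with all libraries and 0.00% without young WT sham 3, while DESeq2 called 129 of 13645 genes.

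Aged WT IR hearts had lower fitted values than aged WT sham hearts for all 10 members, with a median log2 fold change of -0.99, against 0.0031 over all genes. Without both high sham hearts the median was -0.42 and 2 of the 10 values, those of Igtp and Iigp1, were positive. With all 18 libraries none was called by edgeR, or by DESeq2 among the 8 with an adjusted p, and 1 had an unadjusted p below 0.05, where 2.24% of genes were called lower. Without young WT sham 3 the fold changes were the same to within 0.01, but their standard errors were smaller, for Gbp5 0.23, against 0.48 with all libraries. In that fit 3 members fell after IR (1.89% of genes were called lower): Tgtp2 by 1.28 ± 0.36 (adjusted p = 0.0474), Gbp3 by 1.22 ± 0.35 (adjusted p = 0.049) and Gbp5 by 1.01 ± 0.23 on the log2 scale (adjusted p = 0.0207, edgeR).

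Those 3 calls rested on aged WT sham 2. Leaving it out too, the changes were -0.65 for Tgtp2, -0.65 for Gbp3 and -0.73 for Gbp5, and none was called. Leaving out a further library other than that one gave 0 calls without aged WT IR 3, 6 without aged WT sham 1, and 1 to 4 otherwise. Gbp5 was the member whose 3 IR values all lay below all 3 sham values, as did 13.8% of all genes.

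Young WT IR hearts had lower fitted values than young WT sham hearts for all 10 members, and 8 of the 10 were called lower with all 18 libraries, where 1.90% of genes were. Fold changes ran from -4.04 ± 1.11 for Igtp to -2.06 ± 0.48 for Gbp5, with a median of -2.69 against 0.0058 over all genes, and Irgm2 and Iigp1 were not called. Without young WT sham 3 none was called by edgeR, 5 had an unadjusted p below 0.05, the median was -0.69, and 0.514% of genes were called lower. Leaving out aged WT sham 1 or 2 as well gave 2 or 1 calls. The call thus ended with 1 heart left out. Leaving out young WT IR 1, 2 or 3 from the 18 libraries left 5, 1 or 0 calls. Over all genes 1465, 429 or 270 were then called in either direction, against 841 with all libraries.

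What was left differed among the members. Igtp, Irgm1, Irgm2 and Iigp1 had fold changes of -0.12, -0.25, -0.08 and 0.23 without young WT sham 3. Tgtp1, Tgtp2, Gbp2, Gbp3, Gbp4 and Gbp5 had -1.19, -1.45, -0.53, -1.08, -1.16 and -0.84, with standard errors of 0.26 to 0.44. In these 6, all 3 IR hearts lay below all young WT sham hearts, with or without young WT sham 3, as did 9.63% of all genes with it and 12.9% without it. The division into 4 and 6 genes was made after these values were seen and was not tested.

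**Figure D4:**
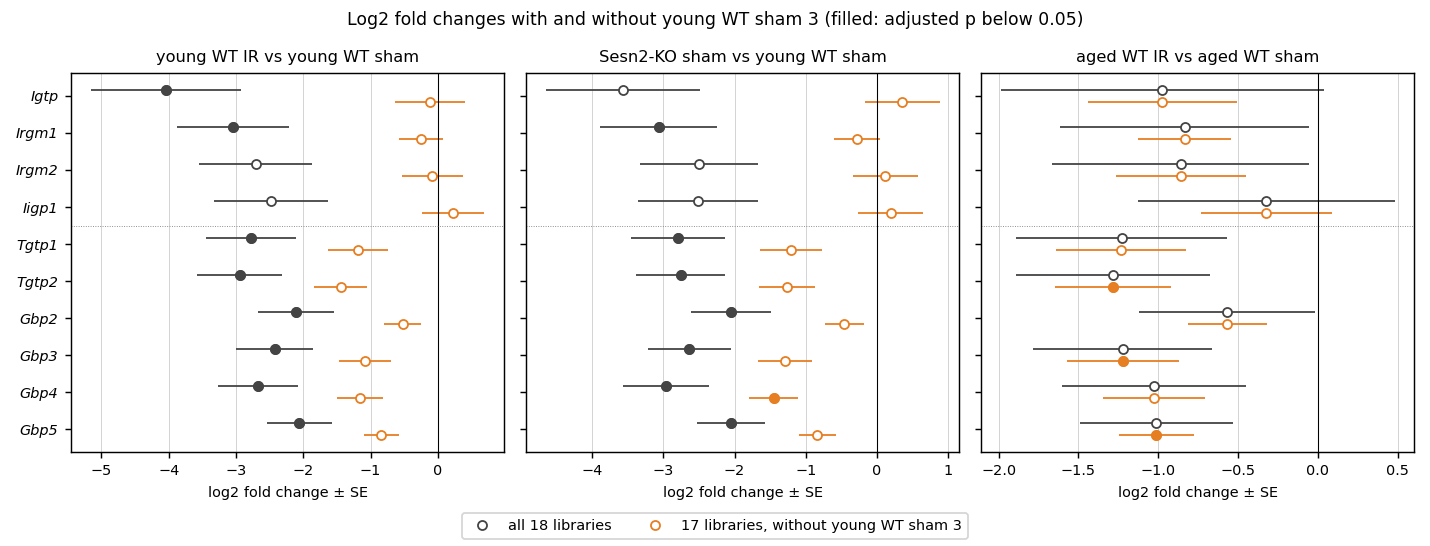
Log2 fold change of each member with its standard error in 3 comparisons, from all 18 libraries (dark) and from 17 without young WT sham 3 (orange); filled points have an adjusted p below 0.05. In the first 2 panels Igtp, Irgm1, Irgm2 and Iigp1 move to near 0 without that heart, and the 6 genes below the dotted line stay negative at -0.46 to -1.45.

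Sesn2-KO sham hearts against young WT sham hearts gave much the same picture, with the young WT sham hearts in common. All 10 members had lower fitted values in Sesn2-KO, and 7 of the 10 were called, where 1.79% of genes were called lower. These were Irgm1, Tgtp1, Tgtp2, Gbp2, Gbp3, Gbp4 and Gbp5, and the median over the members was -2.70, against 0.02 over all genes. Leaving out any 1 of the Sesn2-KO sham hearts left 1 call. Over all genes 364, 374 and 462 were then called in either direction, against 708 with all libraries.

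Without young WT sham 3 the count was 1 of 10, where 0.650% of genes were called lower. It was Gbp4, at -1.45 ± 0.35 (adjusted p = 0.0418, edgeR), a call that ended on leaving out either remaining young WT sham heart, any Sesn2-KO sham heart, young WT IR 2 or 3, aged WT sham 3 or aged WT IR 2. Without aged WT sham 1 or 2 the count was 2 or 3. Fold changes of Igtp, Irgm1, Irgm2 and Iigp1 were then 0.36, -0.28, 0.12 and 0.19, and those of the other 6 from -0.46 to -1.45. Again the 6 had all Sesn2-KO sham hearts below all young WT sham hearts, as did 10.5% of all genes with young WT sham 3 and 13.4% without it. Among other family genes Gbp9 fell by 0.97 ± 0.24 without that heart (adjusted p = 0.0478), and Gbp7 was at 30.0, 29.7 and 22.7 CPM in Sesn2-KO sham hearts, against 44.1, 52.7 and 295.1 CPM in young WT sham hearts.

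**Figure D5:**
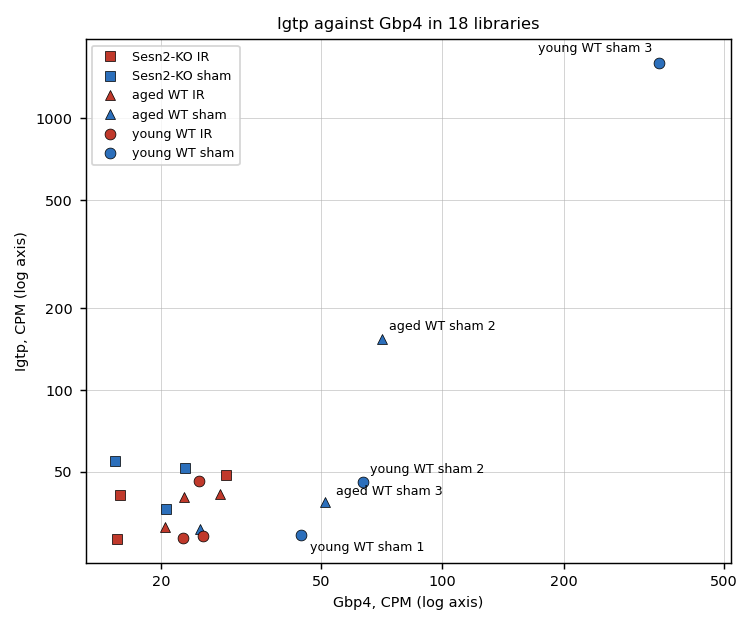
Igtp against Gbp4 in CPM, both axes logarithmic, 1 point a library; squares are Sesn2-KO, triangles aged WT and circles young WT, IR in red and sham in blue. Young WT sham 1 and 2 lie to the right of the IR and Sesn2-KO hearts in Gbp4 (44.5 and 63.6 CPM, against at most 29.1 CPM) but at their height in Igtp, and young WT sham 3 is high in both.

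How the members varied together was described for the same 4 and 6 genes, on the values that had led to the division, so it adds no evidence for it. Over 18 libraries the median Pearson correlation of log2(CPM + 1) between a gene of the 4 and a gene of the 6 was 0.87 (24 pairs). It was 0.58 over the 17 without young WT sham 3 and 0.20 over the 16 that also lacked aged WT sham 2. Within the 6 it was 0.97, 0.92 and 0.88 over the same libraries, and within the 4 it was 0.97, 0.82 and 0.62. Single pairs spread widely: over the 16 libraries they reached 0.86 between the 4 and the 6 and went down to 0.25 within the 4. Irgm1, one of the 4, followed the mean of the other members over the 16 at 0.86, as the 6 did (0.81 to 0.91), whereas Irgm2 was at 0.48, Iigp1 at 0.29 and Igtp at 0.23. These correlations describe libraries that share depth and composition effects and carry no test.

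Among the genes outside the 10 whose pattern was most like the members' mean, the first was Gbp7, at r = 0.99 over 18 libraries and 0.97 over 17. Over 18 they included Parp14, Cd274, Xaf1, Stat2, Parp10, Trim21, Tap1 and Parp12 (0.95 to 0.99). Over 17 they included Parp14, H2-Q4, Xaf1, Ifit3, Cd274, Cmpk2, Ifit3b and H2-K1 (0.89 to 0.95). Over the 16 without both high sham hearts Gbp7 (0.95), Parp14 (0.89) and H2-Q4 (0.86) were still among the first 10. The others there were Gpm6a, Hpgd, Pts, Tnfsf10, Enpp6, Hunk and Dpp4 (0.86 to 0.93). Only the first 10 are given for the 16, so how far the likeness of the other genes named rests on those 2 hearts was not shown.

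The remaining comparisons called no member in edgeR or, where it gave an adjusted p, in DESeq2. Aged WT sham against young WT sham hearts had a median of -1.54 with all libraries, with 8 unadjusted p below 0.05 (0.152% of genes called), and of 0.29 without young WT sham 3, with none (0.0286% called), so the direction turned with that heart. After IR, aged WT hearts differed from young WT hearts by -0.05 to 0.45 (median 0.10, no unadjusted p below 0.05), where 0.0649% of genes were called, or 0.0643% without young WT sham 3. Sesn2-KO IR hearts differed from young WT IR hearts by -0.39 to 0.15 (median -0.05, no unadjusted p below 0.05), where 0.433% were called, or 0.243% without that sham heart.

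The difference between the IR responses of aged and young WT had a median of 1.65, which was -0.15 without young WT sham 3, with 1 and no unadjusted p below 0.05 and 0.00% of genes called in both fits. That between Sesn2-KO and young WT had a median of 2.52, or 0.67 without that heart, with 9 and 3 unadjusted p below 0.05 and 0.0577% and 0.0143% of genes called. Differences in IR response were therefore not shown for any member.

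Of the 17 other family genes, 12 were tested. After IR in young WT hearts 7 of them were called lower with all libraries (1.90% of all genes) and none without young WT sham 3 (0.514%), with 4 unadjusted p below 0.05. In Sesn2-KO sham hearts 4 were called lower against young WT sham (1.79% of all genes), or 1 without that heart (0.650%). In aged WT hearts after IR none was called with all libraries, with no unadjusted p below 0.05 (2.24% of all genes were called lower), and 2, Gm4841 (-3.29 ± 0.92, adjusted p = 0.0449) and F830016B08Rik (-2.42 ± 0.69, adjusted p = 0.0484), were called lower by edgeR without young WT sham 3 (1.89%).

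Of 19 tested interferon-gamma targets, 7 were called lower after IR in young WT hearts with all libraries, where 1.90% of genes were. Those libraries include young WT sham 3, in which 13 of the 20 listed targets were highest. Without young WT sham 3 there was 1 call, Cxcl9 (-1.63 ± 0.37, adjusted p = 0.0313, edgeR), where 0.514% of genes were called lower. In Sesn2-KO sham hearts, also without young WT sham 3, Cxcl9 fell by 1.54 ± 0.37 (adjusted p = 0.0398, edgeR), where 0.650% of genes were called lower. Serpina3g rose by 2.34 ± 0.46 in the same fit (adjusted p = 0.0169, edgeR). Cxcl9 encodes a chemokine that attracts T cells, and Serpina3g a protease inhibitor. Casp4, the caspase downstream of GBP proteins at bacterial lipopolysaccharide, is 1 of the 8 listed inflammasome genes. It rose in Sesn2-KO sham hearts by 1.24 ± 0.23 (adjusted p = 0.014, edgeR). In that comparison 708 of 13859 genes were called in either direction with all libraries, and 296 of 14007 without young WT sham 3.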

How the data were processed

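RNA of 18 left ventricles was sequenced as paired ends from stranded mRNA libraries, per the labels' protocols. The authors deposited whole-number counts per gene symbol for each sample, not normalized. The submitters' processing notes name build mm10 and the tools Bowtie2, TopHat2, SAMtools, HTSeq and FastQC. Their versions, the strand setting and the gene annotation were not given in the sources used here. The 2 summary lines of each table, for reads in no gene (6.12% to 9.06%) and in more than 1 gene (0.631% to 0.759%), stayed out of totals and tests.

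Groups came from the sample titles, and nothing ties samples to litters or days, so the p-values reflect only how these samples vary, which may be technical. The members and lists were chosen with earlier results of these data known. CPM is over summed gene counts. Positions and lengths (longest coding transcript) are from GENCODE M21 on GRCm38, the same build as mm10, and promoter sequences from RefSeq on GRCm38.p6. Differences were fitted in edgeR 4.0.16 under R 4.3.3 (filterByExpr, TMM, robust quasi-likelihood fit with 6 group means), with 9 contrasts and Benjamini-Hochberg adjustment over all 13859 genes tested (14007 without young WT sham 3), called at 0.05. Standard errors are from the test statistic. No pair of replicates agreed within sampling noise (chi-square per degree of freedom 8.9 to 50.85). Named outside the members were all measured genes of the other IRG and GBP list and the interferon-gamma receptor list, up to 4 genes of smallest p and any called gene of other lists, and the 10 genes most like the members' mean; Trim21, Pycard, Tap1 and the class II genes were named after their values were seen. A gene that this rule would name is not reported here. Intervals and limits for a count of 0 cover counting error only. The fit was tested on simulated data. Alternatives were DESeq2 size factors, the DESeq2 1.42.0 Wald test, no filter, the replicate number as a block, and leaving out each library. Added after seeing the data were leaving out both high sham libraries, leaving out 6 length-tilted libraries (1 a group), and leaving out each further library from the fit without young WT sham 3. The length-tilted library of a group is the one with the highest rank correlation with transcript length, so libraries that deviated the opposite way stayed in.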

Additional observations from a re-analysis of the deposited data

How the results depend on the processing

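The number of members that passed the test moved with the libraries left out, with the filter on low counts and with the replicate block. DESeq2 size factors left the counts at 8 for young WT IR against sham and 7 for Sesn2-KO sham against young WT sham. The DESeq2 Wald test gave 8 and 8, without an adjusted p for Igtp and Irgm1. In that order the 2 counts were 3 and 4 with no filter on low counts and 1 and 3 without both high sham libraries. They were 0 and 0 without the length-tilted libraries. Calls over all genes, in either direction, fell as well. They went from 841 and 708 of 13859 genes to 664 and 583 of 19683, 313 and 285 of 13981, and 16 and 144 of 13911. The cause was not tested. With the replicate number as a block the member counts were 5 and 5, where 879 and 755 genes were called in either direction. Some same-numbered samples deviated together, such as replicate 3 of Sesn2-KO IR and sham (0.72) and of aged and young WT IR (0.516). In no comparison did all 3 pairs do so (correlations -0.27 to 0.72, never all 3 above 0.1), so the block stands only here. Without both high shams, fold changes turned positive for Igtp (0.14) and Iigp1 (0.15) in aged WT IR, for Iigp1 (0.23) in young WT IR, and for Igtp (0.36), Irgm2 (0.12) and Iigp1 (0.19) in Sesn2-KO sham hearts. Leaving out 1 library at a time, the member count ran from 0 to 3 in aged WT IR, 0 to 10 in young WT IR and 1 to 10 in Sesn2-KO sham. Calls over all genes, in either direction, ran from 232 to 1369, 270 to 1465 and 296 to 904 in that order. Starting without young WT sham 3 the member count ran from 0 to 6, 0 to 2 and 0 to 3. Over the same libraries Igtp ran from -1.35 to 0.14 and Iigp1 from -0.60 to 0.15 in aged WT IR, Iigp1 from -3.18 to 0.23 in young WT IR, and Igtp from -4.13 to 0.36, Irgm2 from -3.03 to 0.12 and Iigp1 from -3.04 to 0.19 in Sesn2-KO sham. Member medians ran from -0.37 to 0.026 for Sesn2-KO IR against sham, -2.06 to 0.29 for aged against young WT sham, -0.046 to 0.23 for aged against young WT IR, -0.34 to 0.054 for Sesn2-KO against young WT IR (0.0078 without the length-tilted libraries), and -0.15 to 2.25 for the aged minus young IR response. Where a group was left with 1 library, that library was assumed to vary like the others. Counting error limited Tgtp1 most, and 3 hearts a group limit the precision of all.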

Other observations

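Of 13058 genes that averaged 1 CPM or more, 38 were at least 4-fold the higher of their group mates in young WT sham 3. All 10 GTPase members were among them, which is a description only, since the members were picked with the high Igtp of that heart known. In aged WT sham 2, 143 genes were at least 2-fold the higher of aged WT sham 1 and 3, and 26 genes met both limits.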
